A study of Mus musculus with 66 samples.

Results

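Lowering Med13l in cultured mouse neurons was compared with a nontargeting control across all named genes. Med13l is 1 of 9 genes depleted in a series of 66 RNA sequencing libraries. The 12 libraries compared are 6 that received lentivirus with an shRNA (a short hairpin RNA, which lowers the mRNA it matches) against Med13l and 6 that received a nontargeting shRNA, and they were chosen by their labels. Each set of 6 holds 3 libraries from female and 3 from male cultures. All of them, the 6 libraries without virus and the 48 with shRNAs against the other 8 targets included, came from neurons of wildtype mouse embryos of stage E16.5. Virus was present until day 6, and lysis followed on day 10 of culture. The doses had been set by the submitters to leave about 50% of each target. The labels speak of wells infected in triplicate and name no separate cultures or litters, so the p-values below measure the spread between these libraries, which may be technical. How many different hairpins were used against Med13l, and their sequences, are not given in the sources used here.

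Mediator is a large protein complex that links transcription factors bound to DNA with RNA polymerase II. MED13L, or its paralog MED13, tethers a separable kinase module to the core of Mediator. That module also holds cyclin C, MED12 or MED12L, and one of the kinases CDK8 and CDK19, and while it is bound the core complex cannot engage the polymerase. Variants in human MED13L cause a syndrome of intellectual disability with speech delay and are counted among autism risk factors.

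The targeted gene was examined first. Med13l (ENSMUSG00000018076, chr5:118560679-118765438, plus strand, in GRCm38, which is mm10) was at 62.4 CPM in the lowest, 79.1 CPM in the median and 84.7 CPM in the highest of the 6 nontargeting libraries, where CPM are counts scaled to a common library size (counts per megaread) after edgeR's TMM normalisation. With Med13l shRNA the values were 15.0, 28.5 and 30.7 CPM. The groups did not overlap, the lowest value belonged to Med13l shRNA female replicate 1, and the remaining level was 33.8% of the nontargeting mean. The log2 fold change was −1.57 (SE 0.12, edgeR quasi-likelihood test with Benjamini-Hochberg adjustment over all genes, adjusted p = 2.67e-17). Libraries without virus had 67.1 to 86.4 CPM, and the group means of the other 8 shRNAs lay between 69.1 and 80.3 CPM.

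Total counts of the 12 libraries ranged from 24454331 to 56017455, of which 0.715% to 1.08% fell on rows without a gene symbol. Med13l shRNA female replicate 1 stood apart from the other libraries in several of the sums given below. Without it 28 genes of the proteasome list were called higher and 4 lower, 10 and 2 of heme and iron, 8 and 0 of the interferon list, and 0 and 41 of the clustered protocadherins. Among the libraries outside the comparison, which enter the fit for the spread between replicates and, below, as the other 8 shRNAs, 2 did not match the other libraries of their label. Setd5 was at 141 CPM in male replicate 1 of the libraries labelled for Setd5 shRNA, and at 42.9 and 42.7 CPM in the other male libraries with that shRNA, against 133 to 149 CPM in male nontargeting libraries. Kdm6b was at 39.9 CPM in male replicate 1 of the libraries labelled for it, and at 17.2 CPM in each of the others, against 55.1 to 64.9 CPM in male nontargeting libraries, so it was reduced less than in its replicates. Without those libraries 7229 genes were called in the comparison of Med13l shRNA with nontargeting.

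**Figure D1:**
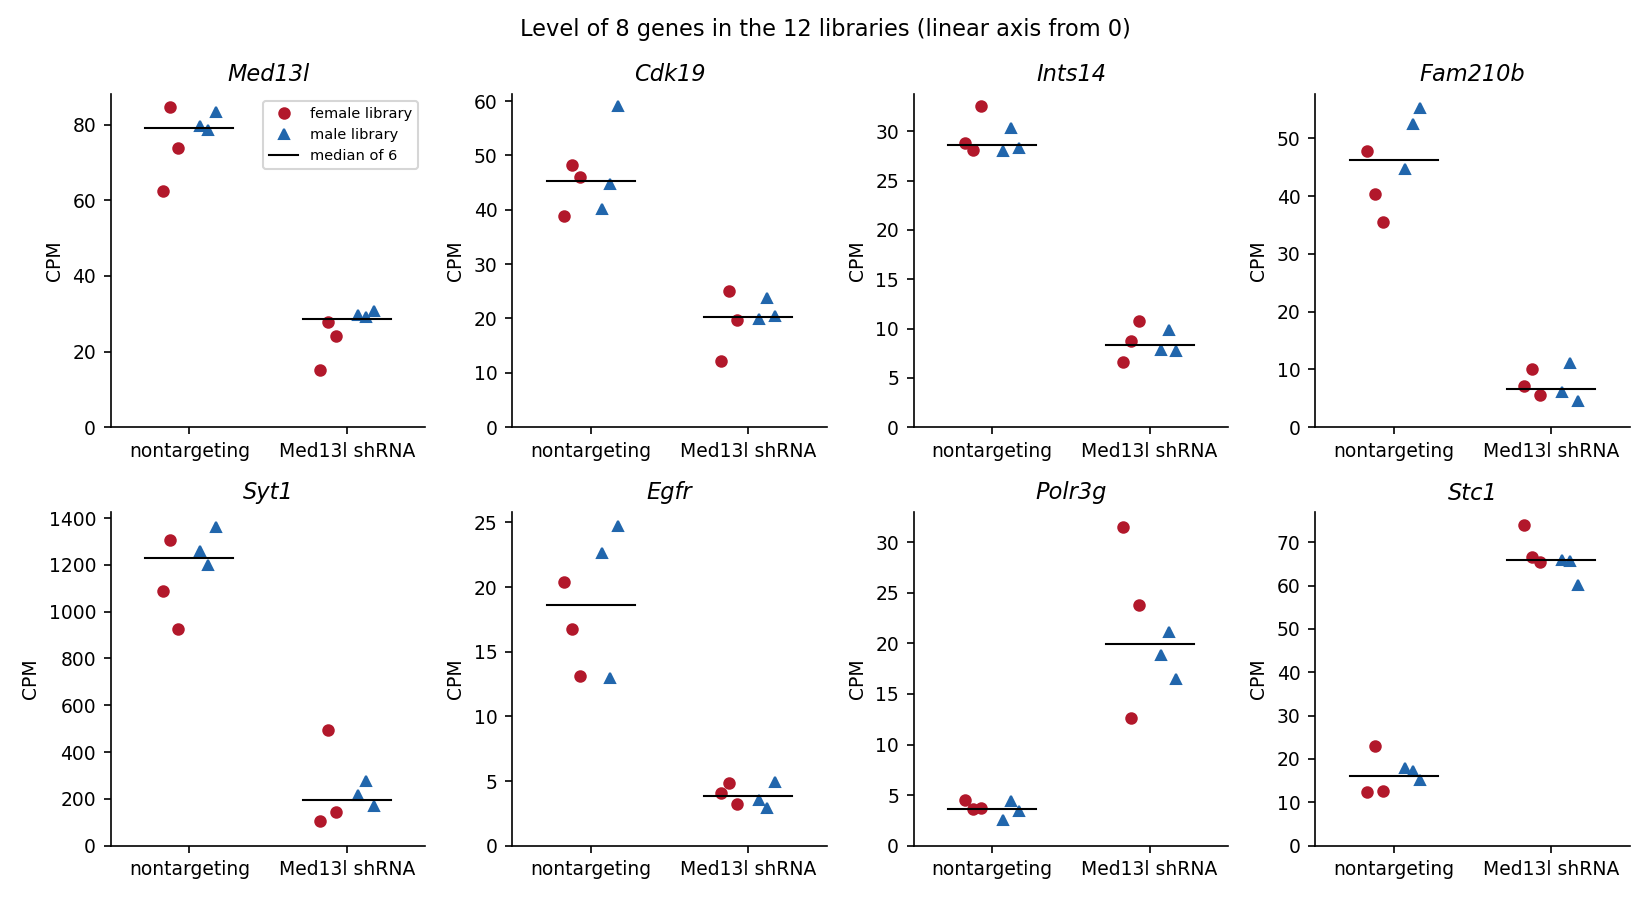
Level (CPM, linear axis from 0) of 8 genes in the 6 nontargeting and 6 Med13l shRNA libraries. Circles are female and triangles male libraries, and the bar is the median of 6. In each panel the groups do not overlap: Med13l, Cdk19, Ints14, Fam210b, Syt1 and Egfr were lower and Polr3g and Stc1 higher with Med13l shRNA.

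Of the 16145 genes tested, 6837 (42.3%) passed an adjusted p of 0.05 in edgeR's test with sex and replicate number as a block. Among these, 3408 (21.1%) were higher and 3429 (21.2%) lower with Med13l shRNA. Most changes were small, since the middle of all genes lay between −0.31 (lower quartile) and 0.26 (upper quartile) on the log2 scale, with a median of −0.01. A change of at least 2-fold was called for 684 genes (4.24%), 207 higher (1.28%) and 477 lower (2.95%). Decreases were thus more frequent among large changes, and past 4-fold there were 16 higher and 61 lower genes. All 6 Med13l shRNA libraries lay above all 6 nontargeting libraries for 808 genes (5%) and below them for 843 genes (5.22%). Without the replicate block 4393 genes (27.2%) passed, 2178 higher and 2215 lower, and all 4393 were among the 6837 with the same direction. The nontargeting libraries, compared in the same way with the libraries without virus, gave 0 calls in edgeR's test, with 353 genes at an unadjusted p under 0.05. Without the block that comparison gave 0 calls and 140 such genes.

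**Figure D2:**
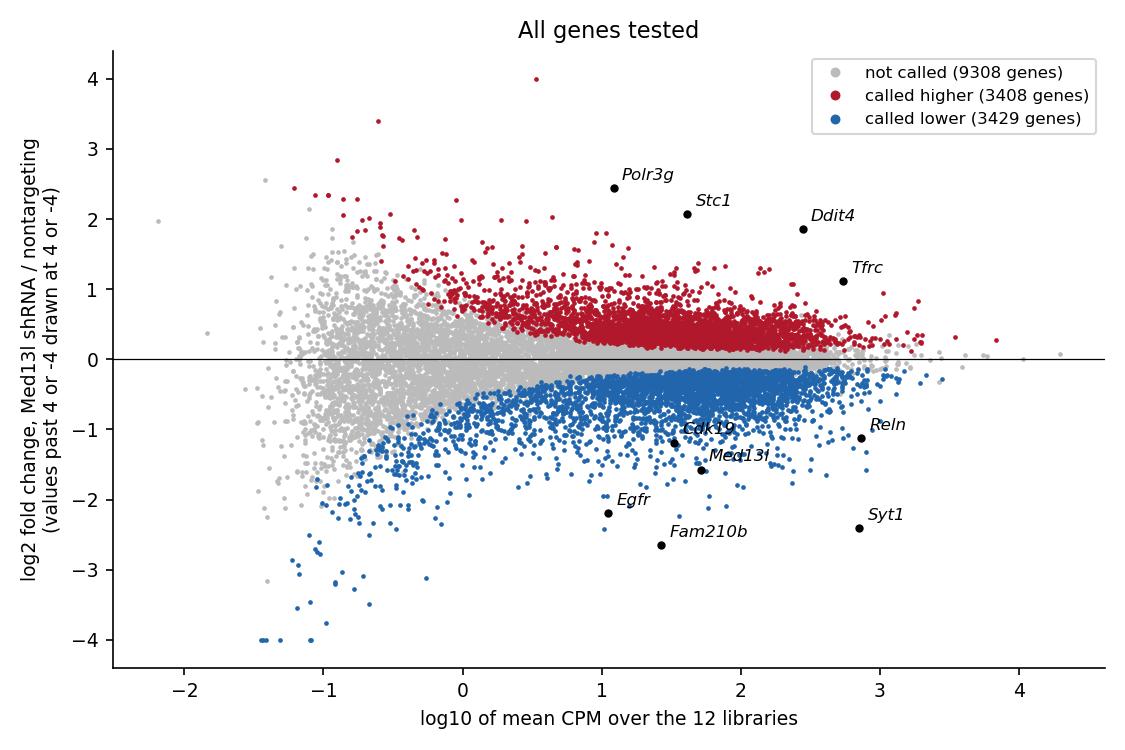
Log2 fold change of Med13l shRNA over nontargeting (vertical axis) against the log10 of the mean CPM over the 12 libraries (horizontal axis), 1 point per gene tested. Red points are the 3408 genes called higher and blue points the 3429 called lower, and the largest changes of abundant genes include Syt1 at −2.40 and Ddit4 at 1.86.

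Within the kinase module, the decrease of Med13l was accompanied by a decrease of Cdk19, the paralog of Cdk8 that serves as the module's kinase. Cdk19 was at 38.9, 45.3 and 59.0 CPM (lowest, median, highest) in nontargeting libraries and at 12.1, 20.2 and 25.1 CPM with Med13l shRNA. The groups did not overlap and the change was −1.19 (SE 0.11, edgeR adjusted p = 1.61e-14). The kinase Cdk8 had 38.2 to 42.5 CPM in nontargeting and 33.5 to 46.6 CPM in Med13l shRNA libraries and was not called (−0.01, SE 0.08). Med13, the paralog of Med13l, fell by 0.47 (SE 0.13, edgeR adjusted p = 0.00187), with overlapping groups, and it lost this call without the block (edgeR adjusted p = 0.178). Cyclin C (Ccnc, 0.22, SE 0.10), Med12 (−0.16, SE 0.11) and Med12l (−0.10, SE 0.14) did not pass. Of the 7 genes of the module, 0 were called higher and 3 lower, the targeted Med13l included (0 and 2 without the block). The share called, 42.9%, was about that of all genes, 42.3%.

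Core Mediator subunits, which form the head, middle and tail of the complex, moved in both directions. Of 25 tested, 12 were called higher and 4 lower, with a median of 0.20 against −0.01 for all genes, and without the block 7 were higher and 2 lower. Med6, a head subunit, rose by 0.53 (SE 0.10; 0.27 after a correction for gene length and GC content and 0.25 against libraries without virus) and Med29 of the tail rose by 0.46 (SE 0.11). Med1, a middle subunit that binds nuclear receptors, fell by 0.41 (SE 0.08). The groups of these 3 genes overlapped. After that correction 8 core subunits were called higher and 3 lower.

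Integrator, a complex that cleaves nascent RNA at paused polymerase and small nuclear RNA genes, held the gene with the smallest p of all. Ints14, a subunit of its arm module, was at 28, 28.6 and 32.5 CPM in nontargeting libraries and at 6.58, 8.30 and 10.7 CPM with Med13l shRNA. The spread within each group was narrow, and the change was −1.77 (SE 0.07, edgeR adjusted p = 8.49e-31). In the same table the group means of Ints14 with the other 8 shRNAs lay between 26.2 and 34.7 CPM. Ints10, which binds Ints14 in that module, fell by 0.73 (SE 0.06), from 72.8 to 83.7 CPM down to 41.7 to 52.4 CPM, without overlap. Ints13, also of that module, went the other way and was called higher. Its log2 fold change was 0.203 to 0.3688 in the alternative fits, and it lost its call in the 12 libraries without the block. Among 15 Integrator genes tested, 5 were called higher and 4 lower, with a median of −0.01 (2 and 2 without the block). Of 30 genes of pause release and elongation, 6 were called higher and 13 lower (1 and 3 without the block), and after the correction for length and GC content 6 each way. Supt5, a subunit of the pausing and elongation factor DSIF, fell by 0.57 (SE 0.07), and Larp7, which stabilises the 7SK RNA that holds the elongation kinase inactive, rose by 0.66 (SE 0.10).

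The largest decreases were found in genes of unrelated functions. Fam210b, which encodes a mitochondrial membrane protein, was at 35.5, 46.2 and 55.2 CPM in nontargeting libraries and at 4.52, 6.60 and 11.2 CPM with Med13l shRNA. Every Med13l shRNA library was below every nontargeting library, and the change of −2.65 (SE 0.15, edgeR adjusted p = 5.14e-22) was the largest decrease under the rule for named genes. Slc25a1, the mitochondrial citrate carrier, fell from 111 to 140 CPM down to 21.4 to 35.4 CPM, a change of −2.10 (SE 0.13). Egfr, the receptor of epidermal growth factor, was at 13.0 to 24.7 CPM and at 2.95 to 4.90 CPM in the respective groups, a change of −2.20 (SE 0.15). Wiz, a zinc finger partner of the histone methyltransferases G9a and GLP, fell by 1.95 (SE 0.12). Fgd1, an exchange factor for the small GTPase Cdc42, fell by 1.83 (SE 0.11), and Lrrc8a, the essential subunit of the volume-regulated anion channel, by 1.96 (SE 0.14). The groups did not overlap for any of these 6 genes, which were picked from the largest falls, beside 5.22% of all genes in this direction. Further decreases without overlap were those of Mmd2 (−2.12, SE 0.12) and Ankrd29 (−2.09, SE 0.15).

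Several genes with very small p fell in all 6 pairs of libraries. They include the actin regulators Lasp1 (−1.82, SE 0.09) and Cap1 (−1.53, SE 0.08), the p53 target Ei24 of the endoplasmic reticulum (−1.80, SE 0.08), the peroxisomal beta-oxidation enzyme Hsd17b4 (−1.28, SE 0.06) and Arl2bp, a partner of the small GTPase Arl2 (−1.33, SE 0.07). Lasp1 was at 145 to 177 CPM in nontargeting libraries and at 30.0 to 57.2 CPM with Med13l shRNA. Cap1 was at 228 to 271 CPM and 56.5 to 132 CPM, and Ei24 at 124 to 174 CPM and 32.2 to 56.6 CPM. None of the 5 genes, picked here by their small p, overlapped between groups, beside 5.22% of all genes that lay lower without overlap.

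Among the largest decreases, Myh8, Pnoc and Nppc varied between libraries and their groups overlapped. Pnoc, the precursor of the neuropeptide nociceptin, had 30.5, 53.7 and 86.9 CPM in nontargeting libraries and 3.57, 9.32 and 49.1 CPM with Med13l shRNA. The value of 49.1 CPM belonged to Med13l shRNA female replicate 2, and its nontargeting counterpart, female replicate 2, held the highest value of that group, 86.9 CPM. Pnoc was lower in 6 of 6 pairs of same sex and number (−2.24, SE 0.24, edgeR adjusted p = 8.28e-11). Nppc, the C-type natriuretic peptide precursor, changed by −1.96 (SE 0.26) and Myh8, a skeletal muscle myosin heavy chain, by −2.42 (SE 0.30), each lower in 6 of 6 pairs.

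Among genes with a mean of at least 5 CPM that rose in all 6 pairs, the largest rise under the rule for named genes was that of Polr3g, which encodes the RNA polymerase III subunit RPC7 that is typical of stem cells and cancer cells. Polr3g was at 2.54, 3.65 and 4.52 CPM in nontargeting libraries and at 12.6, 20 and 31.5 CPM with Med13l shRNA. The groups did not overlap, and the change was 2.44 (SE 0.14, edgeR adjusted p = 2.83e-22). Stc1, which encodes the secreted glycoprotein stanniocalcin-1, rose from 12.4 to 22.9 CPM up to 60.1 to 73.9 CPM (2.07, SE 0.15). Hadh, a mitochondrial enzyme of fatty acid beta-oxidation, rose by 1.59 (SE 0.11), and Atp7b, a copper-transporting ATPase, by 1.67 (SE 0.23). Sap30, a subunit of the Sin3 histone deacetylase complex, rose by 1.46 (SE 0.15). Among the genes with the smallest p were Tomm34 (1.30, SE 0.07), a cochaperone of mitochondrial import, Cyth2 (1.25, SE 0.08), an exchange factor for Arf GTPases, Setd7 (1.29, SE 0.09), a lysine methyltransferase, and Pbx2 (0.97, SE 0.07), a homeodomain factor. For all of these genes, picked by a large rise or a small p, the lowest Med13l shRNA library lay above the highest nontargeting library. Over all genes tested this held for 5%. The rises of H2-Ab1, an MHC class II gene (1.81, SE 0.36), of Ccne2, cyclin E2 (1.64, SE 0.21), of the ion channel family gene Ano3 (1.56, SE 0.19) and of Spidr, a gene of recombination repair (1.40, SE 0.20), came with overlapping groups. Dnph1 (1.57, SE 0.16) and Lefty2, a TGF-beta family antagonist of Nodal (1.38, SE 0.27), rose without overlap from under 5 CPM.

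Amelx, which encodes the enamel protein amelogenin, went from almost no reads to clear counts. It was at 0 CPM in 5 of 6 nontargeting libraries and at 0.0787 CPM in the sixth. With Med13l shRNA it was at 14.7, 0.619 and 3.88 CPM in female replicates 1, 2 and 3 and at 4.13, 3.72 and 13.5 CPM in male replicates 1, 2 and 3. All 6 libraries held it above the control range (edgeR adjusted p = 2.44e-16), and no fold is given because the nontargeting libraries were at or near 0. The group means with the other 8 shRNAs were at most 0.167 CPM. Amelx (chrX:169176114-169187200, minus strand, GRCm38) lies within the span of Arhgap6 (chrX:168795099-169304435), whose own level was not called (−0.19, edgeR adjusted p = 0.417), and whether reads were assigned by strand is not given in the sources used here.

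Genes of hypoxia response and glycolysis were mostly higher. The hypoxia-inducible factors are dimers, stabilised when oxygen is low, that bind DNA at a short core sequence and drive glycolytic enzymes and glucose uptake. Of 28 genes tested from the list, 16 were called higher and 3 lower, with a median of 0.46 against −0.01 for all genes, and without the block the counts were 12 and 2. Without Med13l shRNA female replicate 1 they were 12 and 3. Their summed level was 9061, 10220 and 11710 CPM in nontargeting libraries and 12720, 14820 and 18680 CPM with Med13l shRNA, and the groups did not overlap. Tpi1, triose phosphate isomerase, rose from 615 to 824 CPM up to 1088 to 1999 CPM (0.94, SE 0.15). Pfkfb3, which makes the main activator of phosphofructokinase, rose by 1.23 (SE 0.19), and Hif1a itself, the oxygen-labile subunit, by 0.46 (SE 0.06). Pgam1, phosphoglycerate mutase, fell by 0.61 (SE 0.11), against the direction of the list. By at least 2-fold, 3 members were called higher and 1 lower, and the lowest log2 fold change in the list was −1.05. Outside the list but known as hypoxia-responsive are Ddit4, an inhibitor of mTORC1 (1.86, SE 0.22), Ero1a, an oxidase of the endoplasmic reticulum (1.37, SE 0.12), and Mgarp, a mitochondrial transport protein (1.80, SE 0.42). Ddit4 was at 80.1, 116 and 181 CPM in nontargeting libraries and at 212, 433 and 631 CPM with Med13l shRNA. Neither Ddit4, Ero1a nor Mgarp overlapped between groups.

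Since these genes moved together, the bases before their RefSeq start sites are shown for 4 of them. Ldha, lactate dehydrogenase A, and Bnip3, a mitophagy receptor, were added to Ddit4 and Mgarp after their values and sequences were seen. Ldha was at 1030 to 1615 CPM in nontargeting and 1734 to 3499 CPM in Med13l shRNA libraries (0.83, SE 0.16), and Bnip3 changed by 1.07 (SE 0.26). Capitals mark the letters ACGTG, a form of the core of the hypoxia response element, on either strand. Other forms, such as GCGTG, were not searched for and are not marked. CACGTG, also known as an E-box, carries a match on both strands and counts as 1 place. Each sequence is the 250 bases before a RefSeq start site in GRCm38.p6, written 5′ to 3′ in the direction of transcription. Where a gene had several windows, the one with the most such places was taken. A match in the windows shown therefore partly follows from how they were chosen.
Ldha (chr7:46845554-46845803, plus strand): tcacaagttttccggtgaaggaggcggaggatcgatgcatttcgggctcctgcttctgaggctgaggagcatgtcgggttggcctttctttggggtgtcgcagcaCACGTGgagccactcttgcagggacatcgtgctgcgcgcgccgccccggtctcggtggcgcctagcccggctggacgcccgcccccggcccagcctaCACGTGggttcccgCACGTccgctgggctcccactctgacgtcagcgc
Ddit4 (chr10:59951771-59952020, minus strand): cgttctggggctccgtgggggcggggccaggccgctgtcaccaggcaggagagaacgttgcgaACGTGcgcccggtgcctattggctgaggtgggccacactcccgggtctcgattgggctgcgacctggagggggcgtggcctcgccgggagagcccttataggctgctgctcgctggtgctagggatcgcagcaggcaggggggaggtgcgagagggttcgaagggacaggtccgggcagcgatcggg
Bnip3 (chr7:138909507-138909756, minus strand): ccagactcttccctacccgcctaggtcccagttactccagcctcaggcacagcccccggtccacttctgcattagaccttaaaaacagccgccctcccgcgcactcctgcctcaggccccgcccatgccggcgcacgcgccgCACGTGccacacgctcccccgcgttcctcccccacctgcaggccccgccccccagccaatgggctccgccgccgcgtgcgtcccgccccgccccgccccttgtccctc
Mgarp (chr3:51396548-51396797, minus strand): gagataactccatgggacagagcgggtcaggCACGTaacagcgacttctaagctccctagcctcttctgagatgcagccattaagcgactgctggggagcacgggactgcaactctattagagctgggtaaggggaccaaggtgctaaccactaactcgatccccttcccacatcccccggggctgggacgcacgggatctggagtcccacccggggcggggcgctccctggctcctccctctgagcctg
The Ldha window held 3 such places and the other windows 1 each. Across all genes tested with a RefSeq window, 20.6% of 15812 windows held the motif, and for the hypoxia and glycolysis list 17 of 38 windows (44.7%) held it. Among members of the list called higher, a subset picked by these same data, 12 of 21 windows (57.1%) held it. For cytosolic ribosomal protein genes the motif was in 14 of 48 windows (29.2%), also above the share of all windows. Windows of 1 gene can overlap, and a match is a description of letters, not evidence of binding.

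Genes of heme synthesis and iron handling, the pathway that supplies cytochromes, were also mostly higher. Of 19 tested, 11 were called higher and 3 lower, with a median of 0.30 (10 and 1 without the block). Their sum went from 1703 to 1955 CPM up to 2085 to 2930 CPM without overlap. The transferrin receptor Tfrc, which imports iron, was at 275, 354 and 403 CPM in nontargeting libraries and at 477, 759 and 1039 CPM with Med13l shRNA. Tfrc rose by 1.12 (SE 0.14, edgeR adjusted p = 6.68e-09), and no library of the groups overlapped. The heme oxygenase Hmox2 rose by 0.60 (SE 0.08).

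Genes for the protein synthesis and degradation machinery were higher by small amounts. Of 53 cytosolic ribosomal protein genes tested, 51 were called higher and 0 lower, with a median of 0.46, and the remaining Rpl15 (0.09) and Rplp1 (0.36) did not pass. Rpl3 was at 302, 322 and 352 CPM in nontargeting libraries and at 403, 474 and 613 CPM with Med13l shRNA, without overlap (0.56, SE 0.07). The summed level ranged from 9039 to 15660 CPM in nontargeting and from 11690 to 27050 CPM in Med13l shRNA libraries, and these ranges overlapped. The highest sum, 27050 CPM, belonged to Med13l shRNA female replicate 1, and its nontargeting counterpart of the same number held the highest control sum, 15660 CPM. Without the block 33 of the 53 were called, in a fit of only the 12 libraries without the block 15, and without Med13l shRNA female replicate 1 the count was 49. Ribosomal protein genes have many processed pseudogenes, and how shared reads were assigned is not given in the sources used here.

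Subunits of the proteasome, the protease that degrades ubiquitin-tagged proteins, were mostly higher. Of 37 genes of the proteasome and ubiquitin list, 28 were called higher and 4 lower, with a median of 0.44 (25 and 0 without the block). Psmc3, an ATPase of the regulatory particle, rose from 127 to 158 CPM up to 188 to 331 CPM (0.76, SE 0.07). The sum of the list was 5133 to 6097 CPM in nontargeting and 6273 to 8842 CPM in Med13l shRNA libraries, without overlap. Of 49 nuclear-encoded genes of the respiratory chain, 40 were called higher and 1 lower, with a median of 0.38 (28 and 1 without the block). The exception was Cox7a2, a subunit of complex IV, which fell from 158 to 320 CPM down to 81.5 to 154 CPM (−1.03, SE 0.09, edgeR adjusted p = 2.41e-15).

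**Figure D3:**
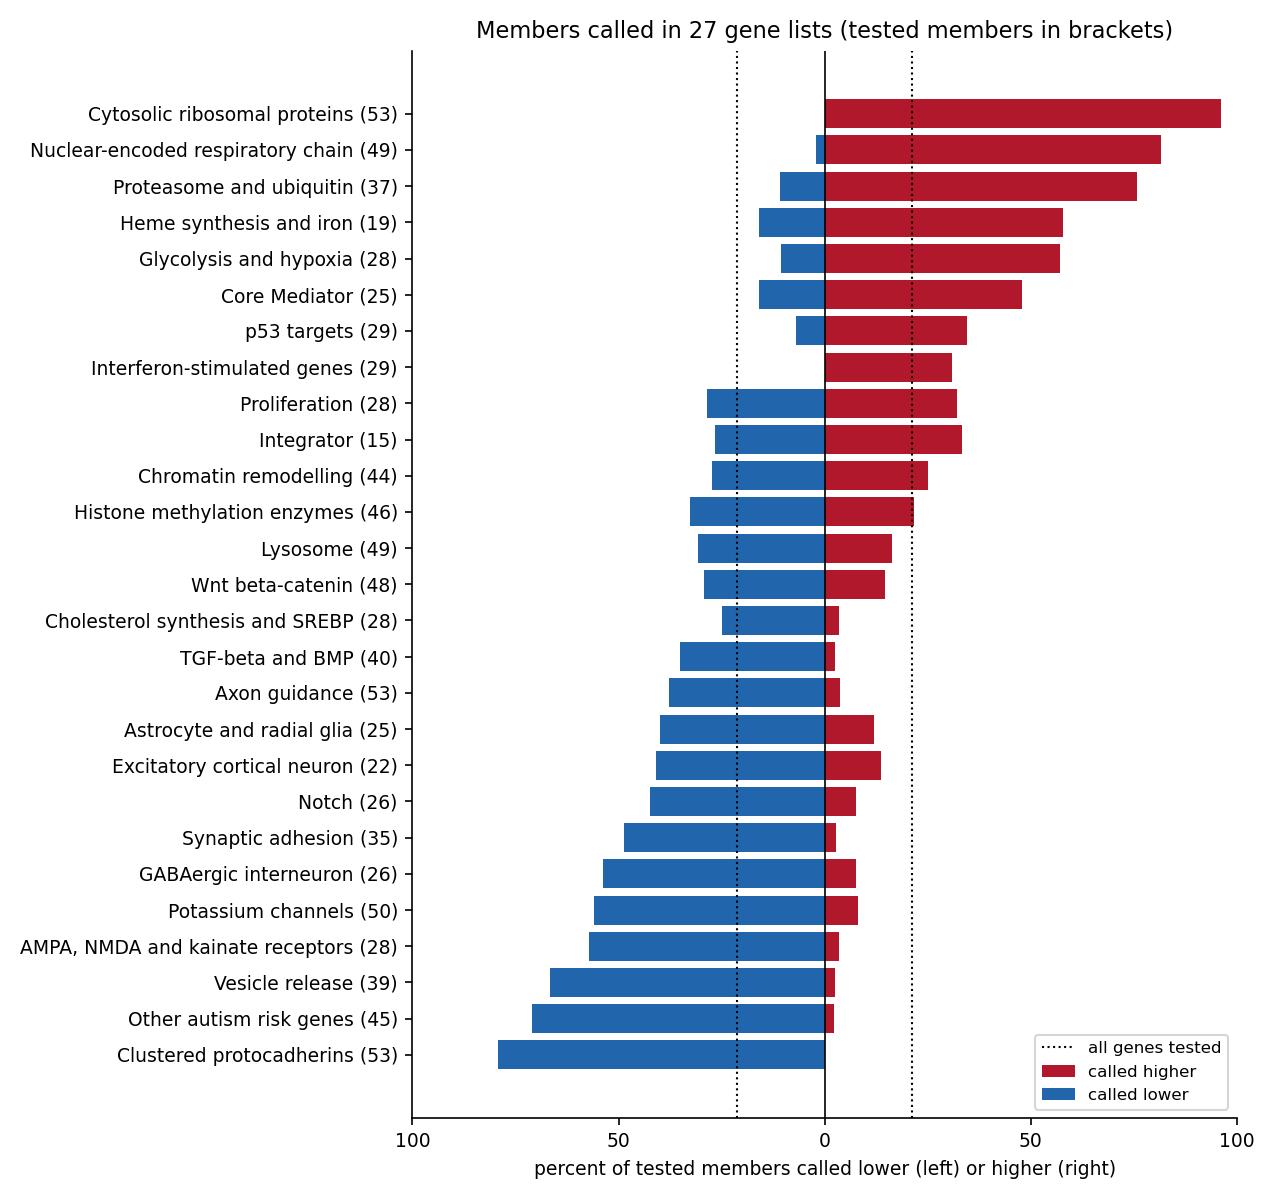
Percent of tested members of 27 gene lists called lower (blue, to the left) or higher (red, to the right), with the number of tested members in brackets. Dotted lines mark the shares over all genes tested, 21.2% lower and 21.1% higher. Ribosomal proteins reach furthest to the right and clustered protocadherins furthest to the left.

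Genes of synaptic vesicle release, the step in which calcium triggers fusion of transmitter-filled vesicles, were mostly lower. Of 39 tested, 26 were called lower and 1 higher, with a median of −0.32, and 17 and 1 without the block. Syt1, synaptotagmin-1, the calcium sensor of fast release, was at 927, 1229 and 1363 CPM in nontargeting libraries and at 105, 195 and 494 CPM with Med13l shRNA. The highest Med13l shRNA value, that of female replicate 2, was still below the lowest nontargeting value, and the change was −2.40 (SE 0.14, edgeR adjusted p = 1.59e-20). The group means of Syt1 with the other 8 shRNAs lay between 629 and 1195 CPM. Complexin-2 (Cplx2), which clamps and promotes fusion, fell from 411 to 600 CPM down to 130 to 192 CPM (−1.58, SE 0.09). Pclo, which encodes the active zone scaffold piccolo, fell by 1.59 (SE 0.15), and the fusion protein syntaxin-1A (Stx1a) by 0.67 (SE 0.07). Of the abundant members, Snap25, the SNARE partner of syntaxin, was not called (−0.04). Vamp1, a synaptobrevin named here after its value was seen, was the member that rose (0.76).

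On the receiving side of the synapse, ionotropic glutamate receptor genes with their auxiliary subunits gave 16 lower and 1 higher call among 28 tested (median −0.27, and 11 and 0 without the block). Gria1, the AMPA receptor subunit GluA1, was at 394, 446 and 573 CPM in nontargeting libraries and at 121, 173 and 263 CPM with Med13l shRNA. Gria1 fell by 1.42 (SE 0.12, edgeR adjusted p = 6.71e-15) without overlap. The NMDA receptor subunit Grin3a fell by 0.77 (SE 0.09) and the AMPA receptor partner Cacng2, stargazin, by 0.63 (SE 0.07). Of 35 synaptic adhesion genes, 17 were called lower and 1 higher (8 and 1 without the block), among them Slitrk5 (−0.73, SE 0.07) and the neuroligin gene Nlgn1 (−0.53, SE 0.09). Of 22 postsynaptic scaffold genes, 12 were called lower and 2 higher (7 and 1 without the block), and after the correction for length and GC content 6 each way. Shank3, a scaffold that organises the postsynaptic density, fell from 126 to 204 CPM down to 49.5 to 115 CPM (−0.88, SE 0.09). Of 9 metabotropic glutamate and GABA-B receptor genes, 6 were called lower and 0 higher, and 1 was called without the block, Gabbr2, which pairs with Gabbr1 in the GABA-B receptor (−0.82, SE 0.07).

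Genes of potassium channels, which set the resting potential and end the action potential, were lower more often than higher. Of 50 potassium channel genes, 28 were called lower and 4 higher, with a median of −0.36 (16 and 1 without the block). Kcnd3, of the transient A-type current, fell by 1.04 (SE 0.09), Kcnc2, of the fast delayed rectifier Kv3, by 0.92 (SE 0.11), and Kcnj6, of the G-protein-gated inward rectifier, by 1.65 (SE 0.20). Kcnd3 was at 87.4 to 121 CPM in nontargeting libraries and at 37.3 to 66.7 CPM with Med13l shRNA, without overlap. Of 28 sodium, calcium and HCN channel genes, 13 were called lower and 4 higher. Without the block 7 were lower and 3 higher, without Med13l shRNA female replicate 1 the counts were 7 and 5, and they became 7 lower and 6 higher after a correction for gene length and GC content. Scn2b, an auxiliary sodium channel subunit, rose from 80.3 to 91.8 CPM up to 145 to 175 CPM (0.88, SE 0.07).

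Markers of GABAergic interneurons, the inhibitory neurons of the cortex, were lower in sum. Of 26 tested, 14 were called lower and 2 higher, with a median of −0.35 (9 and 1 without the block). The summed level was 3680, 4517 and 5209 CPM in nontargeting libraries and 1990, 2723 and 3497 CPM with Med13l shRNA, which is 59.6% of the nontargeting mean. The groups did not overlap, and the highest Med13l shRNA sum was that of female replicate 2. Erbb4, a neuregulin receptor of interneurons, fell by 1.27 (SE 0.14), and Reln, the secreted protein reelin, by 1.13 (SE 0.16), or by 0.73 after the length and GC correction. Gad1, which makes GABA, fell by 0.64 (SE 0.10) with overlapping groups, while its paralog Gad2 was not called (−0.21). In bulk RNA, fewer cells of a type and less RNA per cell cannot be told apart. Of 22 markers of excitatory cortical neurons, 9 were called lower and 3 higher, with a median of −0.17 (4 and 1 without the block), and Bcl11b, a factor of deep-layer neurons, fell by 0.56 (SE 0.08).

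The culture type was checked against defining markers of neurons and of other cells. Of 7 neuron markers, 0 were called higher and 2 lower (Syt1 and Gad1), and the sum of all 7 was 5480 to 6390 CPM in nontargeting and 4160 to 5190 CPM in Med13l shRNA libraries. Most of the fall in that sum lay in Syt1, with means of 1190 and 235 CPM, and Gad1, with 758 and 492 CPM. Tubb3 (1370 and 1340 CPM), Map2 (1710 and 1570 CPM), Snap25, Rbfox3 and Slc17a7 were not called. Astrocyte and radial glia markers summed to 206 to 514 CPM and 118 to 287 CPM, with 4 of 7 called lower and 1 higher. Among a wider list of 25 such genes, 10 were called lower and 3 higher (3 and 2 without the block), including the water channel Aqp4 (−1.16, SE 0.24) and the intermediate filament gene Vim (0.50, SE 0.09). Oligodendrocyte lineage markers summed to 39.3 to 49.5 CPM and 34.0 to 45.0 CPM, microglia markers to 0.945 to 2.64 CPM and 0.437 to 2.02 CPM, and markers of endothelial, mural and fibroblast cells to 16.7 to 49.2 CPM and 14.7 to 33.3 CPM. Of these 3 sets, 2, 1 and 2 markers were called lower, and 1, 0 and 0 higher, and no marker was at 0 in all 12 libraries. Their part in the changes above was not tested.

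**Figure D4:**
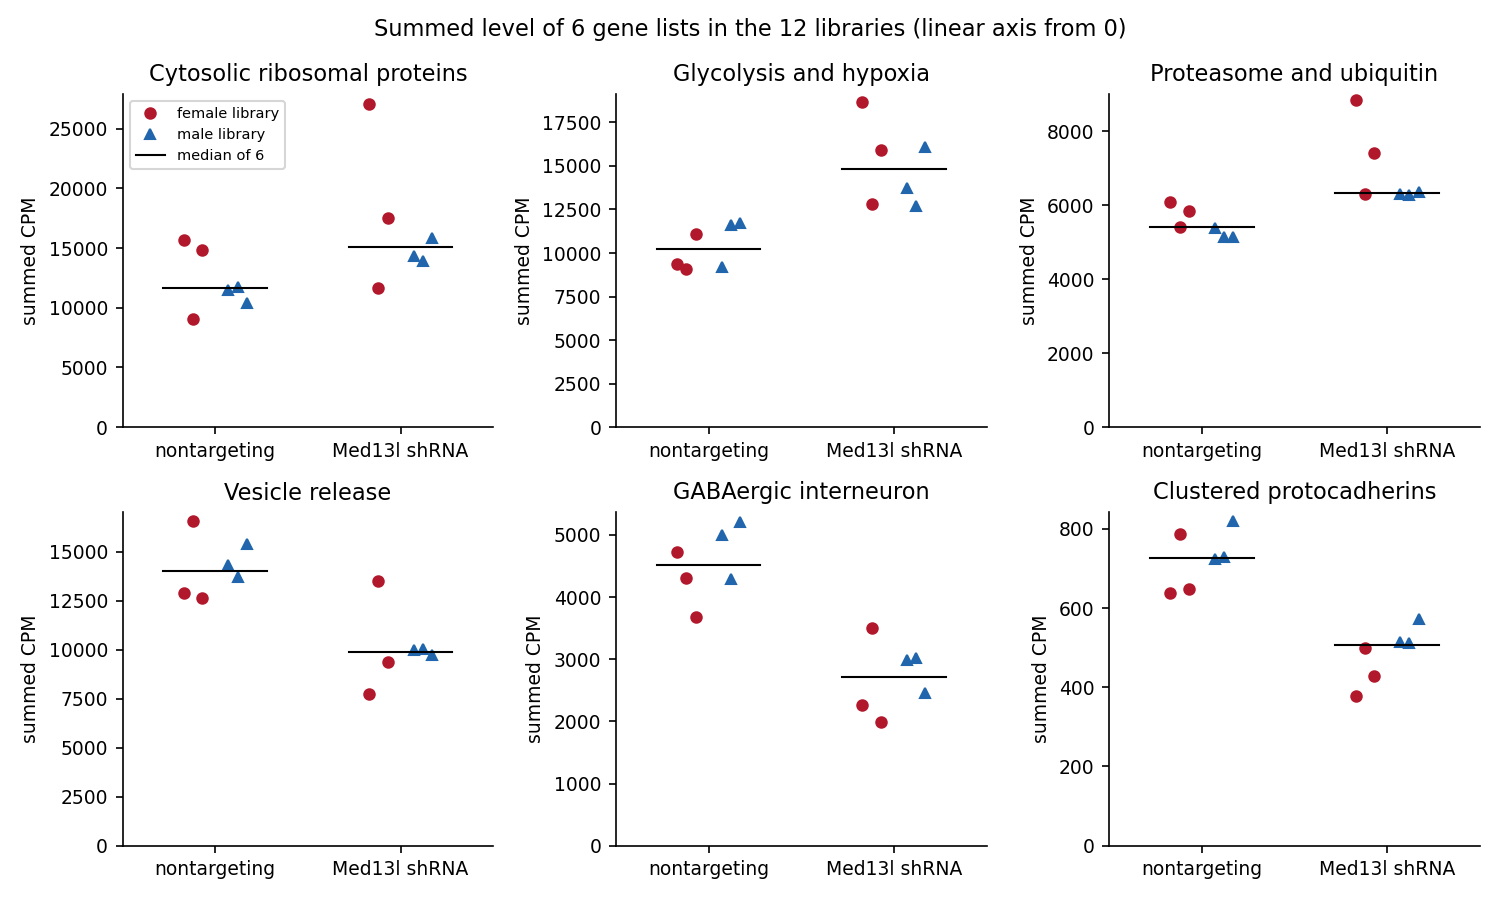
Summed CPM (linear axis from 0) of 6 gene lists in each of the 12 libraries. Circles are female and triangles male libraries, and the bar is the median of 6. The groups overlap for ribosomal proteins and vesicle release and do not overlap for glycolysis and hypoxia, proteasome, GABAergic interneuron and clustered protocadherin genes.

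Clustered protocadherins, cell surface proteins whose combinations give single neurons a molecular identity, were lower as a family. Of 53 tested, 42 were called lower and 0 higher, with a median of −0.65, and 0 higher and 38 lower without the block. Their sum was 639, 727 and 821 CPM in nontargeting libraries and 378, 506 and 573 CPM with Med13l shRNA, without overlap. Pcdhgc4 of the gamma cluster was at 60.8 to 75.7 CPM and at 18.9 to 32.5 CPM in the respective groups (−1.40, SE 0.09, edgeR adjusted p = 2.00e-20). Pcdhga1 changed by −1.36 (SE 0.13) and Pcdhga11 by −1.02 (SE 0.09), both without overlap. Genes of 1 cluster share their constant exons, so their counts are not independent of each other, and how shared reads were assigned is not given in the sources used here.

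Genes that guide axons gave 20 lower (37.7%) and 2 higher (3.77%) calls among 53 tested (median −0.16), and 11 and 2 without the block. The 41.5% called in all was about the 42.3% of all genes, of which 21.2% were lower and 21.1% higher. Sema6a, a transmembrane semaphorin, fell by 1.35 (SE 0.12) and its receptor family member Plxna4 by 1.12 (SE 0.10), both with overlapping groups. After the correction for length and GC content this list had 12 lower and 9 higher calls. Within the Wnt pathway, 14 of 48 genes (29.2%) were called lower and 7 (14.6%) higher, near the shares over all genes, and 7 and 3 without the block. The secreted inhibitor Sfrp1 fell from 64.8 to 82.1 CPM down to 17.0 to 36.3 CPM (−1.48, SE 0.11). Of 40 TGF-beta and BMP genes, 14 were called lower (35%) and 1 higher (2.5%), or 8 and 1 without the block. The share called in either direction, 37.5%, was below that of all genes. Among the lower was the signal transducer Smad5 (−0.87, SE 0.09). Of 26 Notch genes, 11 were called lower and 2 higher (6 and 1 without the block), among them the glycosyltransferase Rfng (−0.92, SE 0.08).

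Other genes known as autism risk genes were mostly lower. Of 45 tested, 32 were called lower and 1 higher, with a median of −0.31 (21 and 1 without the block). Tcf4, a basic helix-loop-helix factor that causes Pitt-Hopkins syndrome when mutated, was at 396, 447 and 602 CPM in nontargeting libraries and at 155, 215 and 351 CPM with Med13l shRNA. Tcf4 fell by 1.09 (SE 0.07, edgeR adjusted p = 2.52e-19) and Cntnap2, an axonal adhesion protein that clusters potassium channels, by 1.10 (SE 0.09), both without overlap. The member that rose was Ctnnb1, beta-catenin (0.34), which is named after its value was seen. After the correction for gene length and GC content, 19 were called lower and 5 higher. The 8 other shRNA targets of the series gave 2 lower calls, Chd8 (−0.29, SE 0.07) and Kmt2c (−0.27, SE 0.11). The share called, 25%, was below the 42.3% of all genes. Kmt2c lost its call without the block (edgeR adjusted p = 0.122), and after the length and GC correction the values were 0.03 for Chd8 and 0.07 for Kmt2c.

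Chromatin genes moved in both directions. Of 46 histone methylation enzymes, 10 were called higher (21.7%) and 15 lower (32.6%). Of 44 chromatin remodelling genes, 11 were higher (25%) and 12 lower (27.3%). Over all genes tested the shares were 21.1% higher and 21.2% lower, so most of these shares lay near them. Kmt5a, which monomethylates a lysine of histone H4, rose from 31.2 to 45.3 CPM up to 77.1 to 92.5 CPM (1.04, SE 0.09). The histone demethylase Phf2 fell by 0.81 (SE 0.07) and the helicase Chd6 by 0.89 (SE 0.08), the latter by 0.56 after the length and GC correction. After the length and GC correction the counts of higher and lower calls became 14 and 7 for histone methylation and 22 and 10 for remodelling, so the direction of these lists depended on that correction. Without the block they were 8 and 13, and 9 and 8.

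Genes of the cell cycle moved in both directions. Of 28 tested, 9 were called higher (32.1%) and 8 lower (28.6%), beside 21.1% and 21.2% of all genes. The replication factors Mcm6 (0.82, SE 0.09) and Pcna (0.69, SE 0.08), which load at or slide on replicating DNA, rose, while the cyclin gene Ccnd3 fell by 1.38 (SE 0.15). Among p53 targets, 10 of 29 were called higher (34.5%) and 2 lower (6.9%). That is 41.4% called in all, about the 42.3% of all genes. Cdkn1a, the inhibitor p21, rose from 102 to 147 CPM up to 194 to 236 CPM (0.77, SE 0.10), and Ccng1, cyclin G1, by 1.07 (SE 0.13), while Ei24 fell as given above. Of 29 interferon-stimulated genes, 9 were called higher (31%) and 0 lower, with a median of 0.59. The share called in either direction was thus below that of all genes. All 29 together summed to only 87.8 to 113 CPM in nontargeting and 98.6 to 158 CPM in Med13l shRNA libraries. B2m, the MHC class I light chain, was at 0.59 (SE 0.15), and it lost its call after the length and GC correction (0.25, edgeR adjusted p = 0.0704).

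Genes induced by neuronal activity were called about as often as all genes (42.3%). Of 22 early transcription factors, 2 were called higher and 7 lower (40.9% in all), and of 22 late genes 2 and 8 (45.5%). Their summed levels overlapped, at 462 to 1755 CPM and 419 to 1860 CPM for the early factors. Without the block, 2 early factors were called higher and 1 lower, and 2 late genes each way. Fosl1, an AP-1 subunit, fell by 0.99 (SE 0.20) and Jun, another, rose by 0.45 (SE 0.12). Among ERK feedback genes, which damp signalling downstream of growth factors, 5 of 18 (27.8%) were called lower and 0 higher, and 1 without the block, Spred3 (−1.05, SE 0.17). That share called was below the 42.3% of all genes.

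The effects in the 2 sexes were compared in a fit with a mean for each treatment and sex. In female cultures 4498 genes (27.9%) passed and in male cultures 3835 (23.8%). Without the replicate block the counts were 1653 and 1302. The female calls numbered 2142 when Med13l shRNA female replicate 1 was left out, and the male calls 2252 when Med13l shRNA male replicate 3 was left out. In both sexes 2937 genes were called, all in the same direction, which is 65.3% of the female and 76.6% of the male calls. In edgeR's interaction test of male against female effect 0 genes passed, with 286 genes at an unadjusted p under 0.05 (110 without the block). Med13l itself changed by −1.72 in females and −1.43 in males, Syt1 by −2.30 and −2.52, Polr3g by 2.46 and 2.43, and Stc1 by 2.20 and 1.94. Across genes, which are not independent replicates and share the normalisation of the libraries, Pearson's r of the female and male effects was 0.572.

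**Figure D5:**
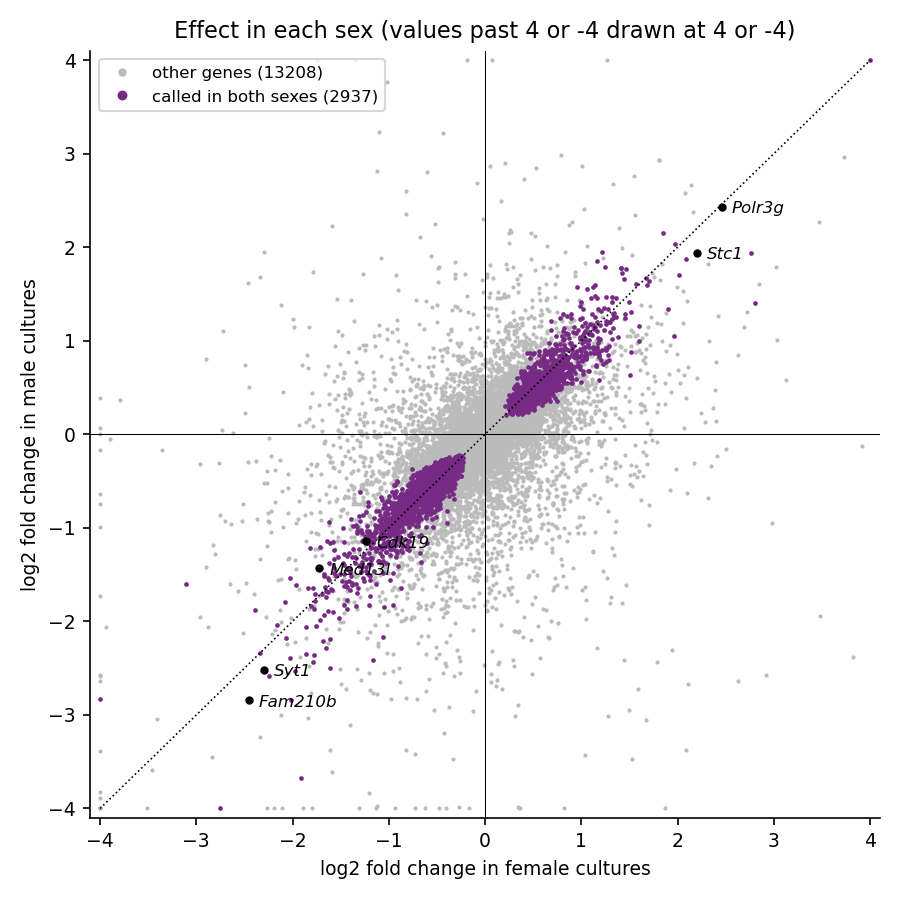
Log2 fold change in male (vertical axis) against female cultures (horizontal axis), 1 point per gene, with the line of equal effect dotted. Purple points are the 2937 genes called in both sexes, which lie in the lower left and upper right corners.

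The Med13l shRNA libraries were also compared with the mean of the other 8 shRNAs, a contrast that holds no nontargeting library. It called 8114 genes (50.3%), 4280 higher (26.5%) and 3834 lower (23.7%), and 6052 without the block. The contrast shares the Med13l shRNA libraries with the comparison above, and it includes the 2 libraries that did not match the others of their label; it was not run without them. The genes with the smallest p in this contrast were Ints14 (−1.76, SE 0.06), Hsd17b4 (−1.37) and Arl2bp (−1.51) among the lower and Polr3g (2.03, SE 0.09), Amelx and Tomm34 (1.15) among the higher. Polr3g had group means between 2.52 and 6.61 CPM with the other 8 shRNAs. It called 50 higher and 0 lower of 53 ribosomal protein genes, 45 and 1 of 49 respiratory chain genes, 1 and 41 of 53 clustered protocadherins and 1 and 25 of 39 vesicle release genes. Against nontargeting the interferon list had 9 higher and 0 lower calls and here 15 and 0, and the unfolded protein and stress response list 3 and 8 there and 6 and 4 here.

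Gene length moved with the direction of change. With all genes sorted by exon length into 5 bins of near equal size, the shortest bin, up to 2.29 kb, had 26.3% of its genes called higher and 8.35% lower, with a median of 0.15. The longest bin, from 7.42 kb, had 12.4% called higher and 37.8% lower, with a median of −0.15. The medians of nontargeting against no virus were −0.02 and 0.01 in the same bins. The difference between the longest and the shortest bin was negative in all 6 pairs of libraries, from −0.62 in female number 1 to −0.15 in male number 1, so Med13l shRNA female replicate 1 stood apart. After a correction for length and GC content 45 of 53 ribosomal protein genes were called higher with a median of 0.32, 44 of 53 clustered protocadherins lower with a median of −0.68, 21 of 39 vesicle release genes lower and 4 higher, and 18 of 28 hypoxia and glycolysis genes higher and 3 lower.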

How the data were processed

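Polyadenylated RNA was sequenced with a stranded kit, per the labels' protocols. The authors deposited 1 table of raw counts per gene, with STAR, featureCounts and mm10 named in the submitters' processing notes. Strand and multimapping settings are not given in the sources used here. Of its 48716 rows, 18483 have no gene symbol and were left out, and 149 rows that repeat a symbol were summed, which gave 30084 symbols. The table has 72 library columns, of which 6 match no sample used and were left out. Columns named for luciferase were taken as the nontargeting control.

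Genes were kept by edgeR's expression filter over the 22 groups (16145 genes) and counts were scaled by TMM. edgeR 4.0.16 (R 4.3.3, limma 3.58.1) fitted a quasi-likelihood model to all 66 libraries, with 11 treatments and 6 blocks of sex and replicate number, leaving 50 residual degrees of freedom. Calls are at a Benjamini-Hochberg adjusted p of 0.05 over all genes tested. Effects in each sex were fitted with group means and replicate number within sex. DESeq2 1.42.0, other scalings and filters, fits without the block and fits without single libraries were alternatives. A correction for gene length and GC content and the fit without the libraries against their labels were chosen after the data were seen.

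The block follows the way the comparison was set. Deviations from the group means were correlated across genes between same-numbered Med13l shRNA and nontargeting libraries. The correlations were 0.513, 0.655 and 0.226 in females and 0.139, 0.019 and 0.123 in males. The numbers thus pair the female libraries and not every male pair. For gene lists compared with nontargeting, counts without the block are given where they differ by over 1.5 times. They are not given for the sets of defining cell markers. Named genes are Med13l, the 14 largest rises and 14 largest falls and the 6 smallest p in each direction among called genes with the same direction in all 6 pairs and a mean of at least 5 CPM, up to 4 called members with the smallest p per list, the kinase module, and the 6 smallest p in each direction against the other 8 shRNAs. Genes named outside this rule are marked as such or stand as unchanged partners. The comparison and the 47 gene lists were chosen with earlier results of these data known. Positions are from GENCODE on GRCm38, matched for 15737 genes (97.5%). Counts were also simulated from the fitted model with 200 of the 16145 genes changed. The pooled fit recovered 60% of changes of 0.5 and 81% of changes of 1 on the log2 scale, 100 genes each, with 5 false calls. Far more genes were called in the data, and the adjusted p depends on that number, so these rates need not hold for the data.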

Additional observations from a re-analysis of the deposited data

How the results depend on the processing

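The pooled count of 6837 called genes fell to 4393 (2178 higher, 2215 lower) without the replicate block and to 3550 (1752 higher, 1798 lower) in a fit of only the 12 libraries without the block. The 12 libraries with the block gave 7101. Without the block 1653 genes were called in females and 1302 in males. Other settings gave 6829 (DESeq2-style size factors in edgeR), 7035 (DESeq2), 6320 (no filter on low counts), 6908 (counts halved), 6627 (libraries without virus as the control) and 6953 (length and GC correction, 3772 higher and 3181 lower). Leaving out 1 library at a time gave 5937 to 6954 pooled, 2142 to 4816 in females and 2252 to 3592 in males. The interaction of sex and the infection contrast gave 0 calls in every alternative run for them. The gene Cdk8, not called, was at a log2 fold change of 0.004365 with counts halved, 0.003509 without the libraries against their labels, 0.08443 after the length and GC correction, and −0.04221 to 0.04625 with single libraries left out. After that correction the gene Med12 was at 0.008731, gene Med12l at 0.1119, gene Chd8 at 0.03432 and gene Kmt2c at 0.06996. The cause of these differences was not tested. Of 215 named genes, 25 lost their call without the block, 34 in the 12 libraries without the block and 7 after the length and GC correction, under which 5 changed sign.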

Other observations

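Several gene groups outside the report gave calls in both directions, beside 21.2% of all genes called lower and 21.1% higher. Genes of motors and the cytoskeleton had 12 lower (26.1%) and 7 higher (15.2%) calls among 46, without the block 4 and 2, and after the correction for length and GC content 9 lower and 15 higher. Map1a, which encodes a protein that stabilises microtubules, was at 541 to 872 CPM in nontargeting and 141 to 506 CPM in Med13l shRNA libraries and fell by 1.12 (SE 0.10). The kinesin gene Kif3c fell by 0.74 (SE 0.06). Neither overlapped between groups. Of 44 genes of splicing and neuronal RNA-binding proteins, 13 were called lower (29.5%) and 9 higher (20.5%), and without the block 8 and 1. The Celf family members Celf2 (−0.64, SE 0.08), Celf4 (−0.42, SE 0.07) and Celf5 (−0.55, SE 0.08) were among the lower, with Celf2 at −0.31 and Celf4 at −0.26 after the length and GC correction.

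Of 37 imprinted genes, which are expressed from 1 parental copy, 11 were called lower and 7 higher (9 and 2 without the block). After the length and GC correction 9 were lower and 7 higher, and the median went from −0.16 to −0.002. Ube3a, the ubiquitin ligase lost in Angelman syndrome, was at 172 to 228 CPM in nontargeting and 99.3 to 157 CPM in Med13l shRNA libraries (−0.58, SE 0.11, and −0.38 after the length and GC correction). Of 28 cholesterol synthesis genes, 7 were called lower and 1 higher (6 and 1 without the block), and the 28.6% called was below the 42.3% of all genes. Of 17 genes of fatty acid synthesis, 7 were called lower and 2 higher (5 and 0 without the block), among them the desaturase family gene Fads3 (−0.79, SE 0.07). Of 49 lysosome genes, 15 were called lower and 8 higher (7 and 4 without the block), and the lysosomal peptidase gene Tpp1 fell by 0.82 (SE 0.08) without overlap. Of 40 collagen and laminin genes, 16 were called lower and 2 higher (8 and 0 without the block). After the length and GC correction 9 were lower and 4 higher, and the median went from −0.29 to −0.07. Of 35 genes of the unfolded protein and integrated stress response, 8 were called lower and 3 higher (3 and 0 without the block). The share called, 31.4%, was also below that of all genes. Of 15 GABA-A receptor genes, 6 were called lower and 2 higher (5 and 1 without the block), and gephyrin (Gphn), which anchors these receptors, rose by 0.34 (SE 0.07) without overlap.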
